A study of Mus musculus with 15 samples.

Results

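The immediate early and serum response genes are 41 genes, out of 34989 in the count table. They were listed by symbol, with earlier results of these data known. They comprise 7 AP-1 subunit genes, 2 small Maf genes, 4 Egr genes, 3 Nr4a nuclear receptor genes, 4 Kruppel-like factor genes, 7 other nuclear regulators, 3 genes of the Zfp36 family, 7 genes of feedback and signalling, 2 secreted matrix proteins and 2 synaptic proteins. Their RNA was measured in 15 libraries of wild type mouse neural progenitor cells, in 5 groups of 3 libraries. All cells were grown with FGF2, EGF and heparin and received a plasmid carrying EGFP and a short hairpin RNA, meant to lower transcripts that match it, and the GFP-positive cells were sorted on day 3. The groups are shLINE_Orf1+LINE-1 (the Orf1 hairpin together with LINE-1), shLINE_Orf1, shLINE_Orf2, shLINE_MdV_I and the control hairpin, shControl. LINE-1 elements are retrotransposons, and the design sets hairpins against young and old elements beside a full-length LINE-1 added with the hairpin against young ones. The labels do not say which age of element shLINE_Orf2 and shLINE_MdV_I target, and LINE-1 RNA was not analysed here, so the knockdown in each library is not known. The labels do not say that replicates are separate cultures, so every p-value is set against library-to-library spread that may be technical. In such bulk samples, fewer cells of a type and less RNA per cell cannot be told apart.

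Immediate early genes are transcribed within minutes of a stimulus without new protein synthesis. Growth factors acting through receptor kinases, Ras and ERK, and calcium or cAMP acting on Creb, converge on factors already bound at these genes, such as Srf with its ternary complex partners. Many of the products are transcription factors, others end the response by removing phosphates from MAP kinases or by destroying AU-rich mRNAs, and most of the mRNAs are short-lived. In neural progenitors kept in FGF2 and EGF the pathway is under steady growth factor input, whereas Arc, Npas4 and the short form of Homer1 are best known from active neurons.

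The libraries held between 39209073 and 51075910 gene counts, of which the 41 genes took 0.0855% in shLINE_Orf1 replicate 1 and between 0.130% and 0.174% in the other 14 libraries. The progenitor label was checked against 7 markers (Sox2, Nes, Pax6, Fabp7, Vim, Olig2 and Hes5). They summed to between 5872 and 9757 CPM (counts per 1000000, after TMM scaling) in every library, with Fabp7 the largest part (3002 to 7628 CPM). The highest sum was that of shLINE_Orf1 replicate 1, where Fabp7 was highest. That library had the least Sox2 (141 CPM), Nes (154 CPM), Vim (1256 CPM) and Olig2 (504 CPM) of all, while Pax6 (21.1 CPM) and Hes5 (52.4 CPM) were not low. Markers of microglia summed to at most 2.29 CPM, with Aif1 at 0 in all libraries, and those of fibroblasts to at most 0.994 CPM. Of 5 endothelial and mural markers 4 averaged under 1 CPM, the other being Pecam1. All 5 microglial and all 4 fibroblast markers averaged under 1 CPM. The 8 neuronal markers, 2 of them under 1 CPM, summed to 29.95 to 30.97 CPM in shLINE_Orf1+LINE-1, 27.7 to 34.5 CPM in shLINE_Orf1, 38.8 to 43.2 CPM in shLINE_Orf2 and 43.8 to 53.3 CPM in shLINE_MdV_I, against 37.4 to 43.0 CPM in shControl. The 4 astrocyte markers summed to 320 to 347 CPM in shLINE_Orf1+LINE-1 and 311.9 to 380.1 CPM in shLINE_Orf1. Both groups lay above every shControl library, at 281.6 to 303.4 CPM. The sums in shLINE_Orf2 (286.4 to 338.6 CPM) and shLINE_MdV_I (278.5 to 321.2 CPM) overlapped shControl. The part of these shifts in the results below was not tested. shLINE_Orf1 replicate 1 stands apart, with 3.61% of counts from mitochondrial mRNA, against 2.02% in shControl replicate 2 and at most 1.97% elsewhere, and results that rest on it are given with and without it.

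Promoter windows from 250 bases before to 50 after a start site (RefSeq, GRCm38.p6) were found for 30 of the 41 genes, and 4 of them are shown because they carry elements through which this response is known to be read and belong to genes whose values are given below. Capitals mark the matches, and the sequence ends at the base before the start. A CArG box (CC, then 6 of A or T, then GG) is the element bound by Srf, TGACGTCA is the cAMP response element bound by Creb, and GCGNGGGCG is the site bound by Egr proteins, in Klf4 read on the other strand. Srf (chr17:46556163-46556292, minus strand) carries CArG boxes whose first bases lie at -82 and -62 and an Egr site at -101.
Zfp36: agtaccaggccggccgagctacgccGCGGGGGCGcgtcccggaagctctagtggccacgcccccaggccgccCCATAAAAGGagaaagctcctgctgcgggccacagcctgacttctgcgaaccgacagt
Srf: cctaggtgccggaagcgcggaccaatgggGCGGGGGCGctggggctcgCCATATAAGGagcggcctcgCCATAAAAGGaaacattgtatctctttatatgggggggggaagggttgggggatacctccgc
Maff: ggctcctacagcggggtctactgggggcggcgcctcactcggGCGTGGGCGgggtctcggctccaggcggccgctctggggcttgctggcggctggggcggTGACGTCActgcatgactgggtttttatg
Klf4: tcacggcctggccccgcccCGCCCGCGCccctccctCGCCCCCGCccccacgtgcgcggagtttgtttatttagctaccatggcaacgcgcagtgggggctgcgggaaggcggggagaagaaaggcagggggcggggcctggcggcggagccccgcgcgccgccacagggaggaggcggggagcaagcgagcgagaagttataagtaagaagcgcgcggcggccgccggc
Zfp36 (chr7:28379229-28379358, minus strand) has a CArG box at -58 and an Egr site at -105. In Maff (chr15:79347390-79347519, plus strand) a cAMP response element lies at -29 and an Egr site at -88. Klf4 (chr4:55532476-55532705, minus strand) has Egr sites at -211 and -194.

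Over the 30 genes with a window, an Egr site was found for 11 (36.7%), namely Dusp2, Fosb, Fosl2, Klf2, Klf4, Maff, Mafk, Nr4a1, Nr4a2, Srf and Zfp36, whereas 6.27% of 27025 genes had one. A CArG box was found for 4 (13.3%), Dusp5, Egr2, Srf and Zfp36, against 1.81% of all genes. The cAMP response element was found for Dusp1 and Maff (6.7% against 2.03%) and the AP-1 site TGANTCA for Csrnp1 and Zfp36l1 (6.7% against 8.97%). Some genes have more than 1 window, so the shares were also counted per window (45 windows of these genes, 32851 of all). They were 24.4% against 5.55% for the Egr site and 15.6% against 1.63% for the CArG box. For the cAMP response element they were 4.4% against 1.79%, and for the AP-1 site 4.4% against 7.81%. The other genes were not matched for expression or base content. Both strands were searched, and the exact letters of one of these elements do not hold those of another. A match is a description of the letters in this window and not a site of binding.

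Levels that can be compared between genes are given per transcript length, as TPM (the share of transcripts per 1000000) averaged over the 15 libraries. Klf10, a TGF-beta-inducible repressor, had the highest level at 129.9 TPM, followed by Jun, the AP-1 subunit, at 126 TPM and the growth regulator Myc at 109 TPM. Ier3, an antiapoptotic stress protein, was at 97.3 TPM and Klf6 at 73.2 TPM. Egr1 stood at 58.4 TPM and Fos at 17.7 TPM, so the factor genes best known as markers of the response were expressed well under Jun. Of the 41 genes 3 lay at 100 TPM or more, 17 between 10 and 100 TPM, 16 between 1 and 10 TPM and 5 under 1 TPM. Those 5 were Nr4a3, Ctgf, Egr3, Fosb and Npas4, and Fosb and Npas4, at 0.0802 and 0.0133 TPM, were the 2 of 41 that did not pass the filter on low counts. Their highest values in any library were 0.431 CPM for Fosb and 0.0859 CPM for Npas4. The other 39 were tested.

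**Figure D1:**
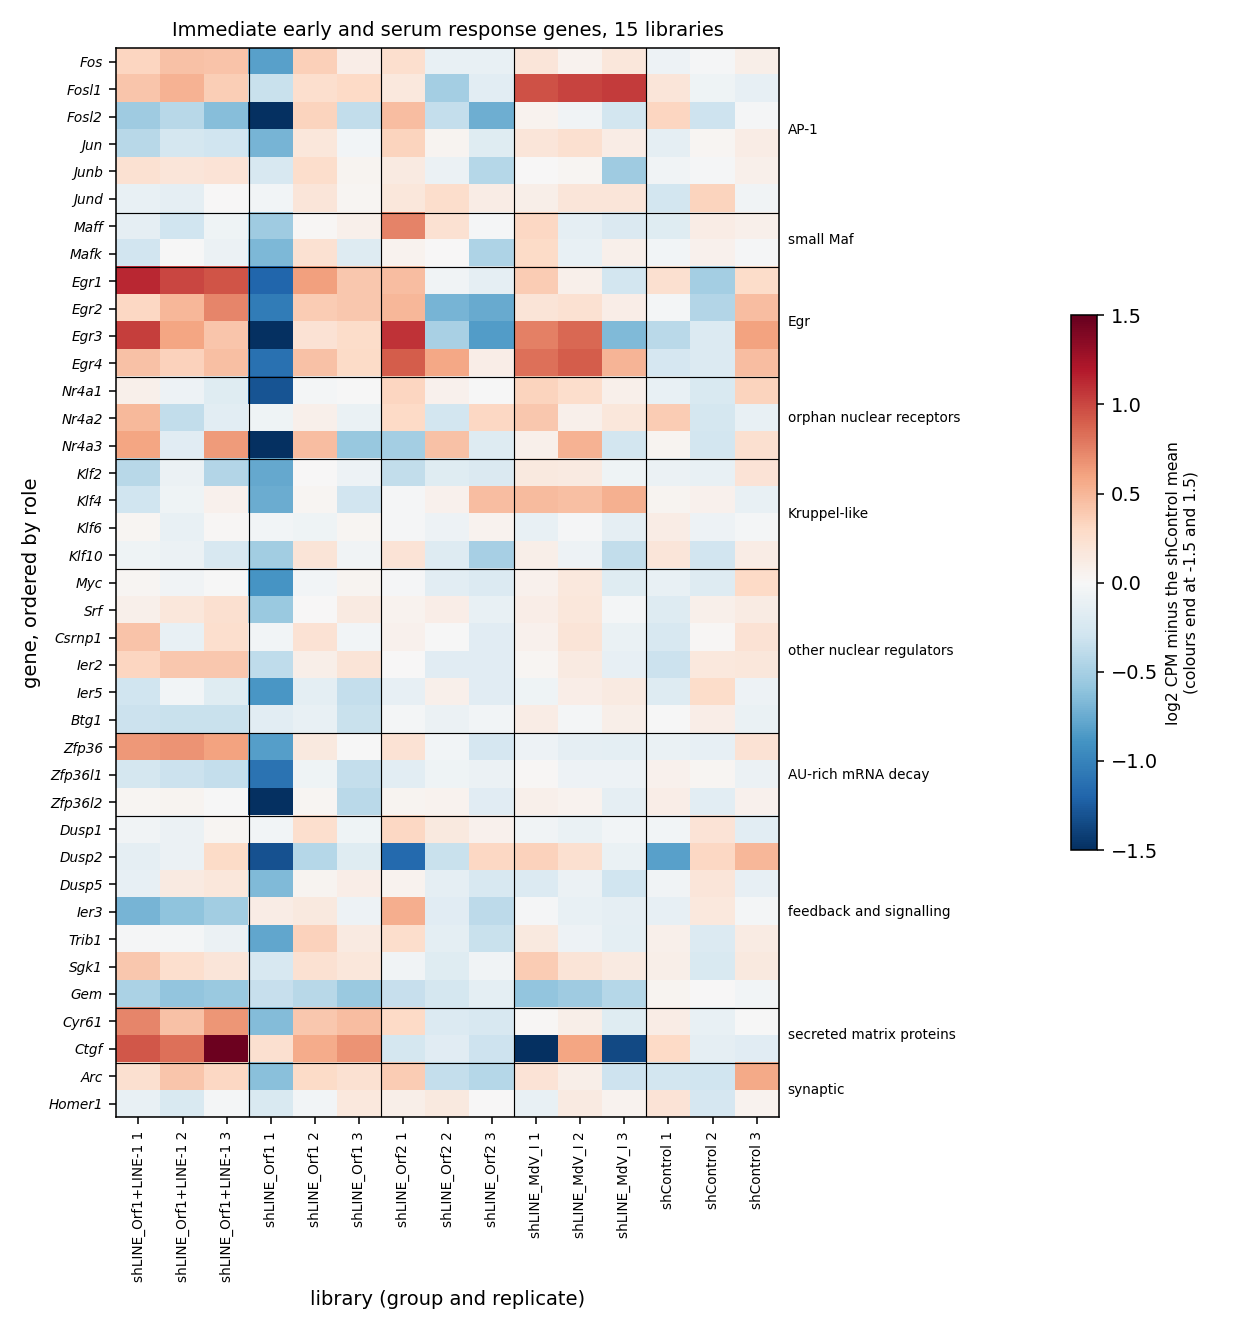
Heat map of the 39 tested genes (rows, by role) in the 15 libraries (columns, by group and replicate), coloured by log2 CPM minus the mean of the shControl libraries. shLINE_Orf1 replicate 1 is the blue column, lowest of all 15 libraries for 27 of 39 genes, and Fosl1 is red in the 3 shLINE_MdV_I libraries.

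The summed level of the genes overlapped between shControl and every other group. It was 1497 ± 12.2 CPM in shLINE_Orf1+LINE-1, 1377 ± 334 CPM in shLINE_Orf1, 1481 ± 199 CPM in shLINE_Orf2 and 1525 ± 107 CPM in shLINE_MdV_I, against 1512 ± 93.3 CPM in shControl (SD, n = 3 each). The single libraries lay between 1307 and 1698 CPM except shLINE_Orf1 replicate 1, at 1003 CPM. Against shControl, 0 of 39 genes were called in shLINE_Orf1+LINE-1 (0.139% of all 15147 genes were), 0 in shLINE_Orf1 (0.178% of all genes), 0 in shLINE_Orf2 (0.191%) and 1, Fosl1, which was higher, in shLINE_MdV_I (0.594%, and 0.257% of all genes were higher). These calls are at an adjusted p under 0.05 in edgeR's quasi-likelihood test, with the Benjamini-Hochberg adjustment over all genes. At an unadjusted p under 0.05 the counts were 8 of 39 in shLINE_Orf1+LINE-1 (8.77% of all genes), 4 in shLINE_Orf1 (10.5%), 1 in shLINE_Orf2 (7% of all genes) and 4 in shLINE_MdV_I (8.64%). The median log2 fold change over the 39 was -0.02, -0.11, -0.05 and 0.04 in the same order, beside -0.02, -0.01, -0.01 and -0.01 over all genes. Groups that did not overlap were found in shLINE_MdV_I for 4 of 39 genes that were higher, Fosl1, Jun, Egr4 and Klf4 (8.22% of all genes), and 1 that was lower, Gem (6.65%), or 5 in all (14.9%). In shLINE_Orf2 there were 3 such genes (12% of all genes), Klf2, Ctgf and Gem, all lower (5.11%). All 4 comparisons share the shControl libraries. The library description holds, just before its S number, a number whose meaning the labels do not give. It is 12 for shLINE_Orf1 replicate 1 and for shLINE_MdV_I replicates 2 and 3, and 1 for the other 12 libraries. With that number as a covariate the median in shLINE_MdV_I was 0.33, beside -0.0015 over all genes. Positive genes numbered 34 of 39, against 21 of 39 without the covariate. Fosl1 (1.19 ± 0.27, adjusted p = 0.0467) and Gem (-0.60 ± 0.14, adjusted p = 0.0483) were then called (edgeR), as were 1.1% of all genes. Only shLINE_Orf1 and shLINE_MdV_I hold both numbers, so this covariate draws on shLINE_Orf1 replicate 1, the library that stands apart. Without the covariate, the mean log2 deviation of the 39 genes from shControl was 0.12, 0.14 and -0.08 in the 3 shLINE_MdV_I libraries. Within number 1, shLINE_MdV_I has replicate 1 alone, so no spread can be had there. In the test for any difference among the 5 groups, Fosl1 alone of the 39 was called (adjusted p = 0.0419, edgeR; 0.944% of all genes), and it was not called there in 11 of the 15 fits that leave out 1 library (adjusted p 0.0137 to 0.151).

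Among the AP-1 genes, whose products pair as Fos and Jun dimers, Fosl1 was the gene that changed. Fosl1 (chr19:5447547-5455946, plus strand, GRCm38), which encodes Fra-1, had 2.98, 3.09 and 3.18 CPM in shLINE_MdV_I, against 1.72, 1.45 and 1.39 CPM in shControl. It had 2.03, 2.19 and 1.96 CPM in shLINE_Orf1+LINE-1, 1.19, 1.80 and 1.86 CPM in shLINE_Orf1 and 1.70, 1.05 and 1.35 CPM in shLINE_Orf2. All 3 shLINE_MdV_I libraries were above all 12 others, which held for 1.02% of genes. The gene rose in shLINE_MdV_I by a log2 fold change of 1.02 ± 0.22 (SE; edgeR adjusted p = 0.0460). This call is near its threshold: leaving out each library in turn kept the log2 fold change between 0.98 and 1.13, but the gene was not called in 11 of 15 such fits (adjusted p 0.0124 to 0.170, edgeR). The libraries whose removal ended the call were all 3 of shLINE_MdV_I (adjusted p from 0.149 to 0.170), of shControl (0.0868 to 0.144) and of shLINE_Orf1+LINE-1 (0.0677 to 0.0721), and replicate 3 of shLINE_Orf1 (0.0580) and of shLINE_Orf2 (0.0730). Against shLINE_Orf2 and shLINE_Orf1 the Fosl1 difference of shLINE_MdV_I was 1.18 ± 0.22 (adjusted p = 0.0548) and 0.92 ± 0.22 (adjusted p = 0.0704). Exons of Ccdc85b overlap Fosl1 on the other strand, and strand is not stated for these counts. Ccdc85b had 26.5 to 31.3 CPM in shLINE_MdV_I and 22.3 to 46.2 CPM in shControl (log2 fold change -0.18 ± 0.18, edgeR adjusted p = 0.882), and its groups overlapped.

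The other 5 tested AP-1 genes did not pass the test in any comparison. Fos had 23.8, 25.8 and 25.5 CPM in shLINE_Orf1+LINE-1, 10.8, 24.5 and 20.4 CPM in shLINE_Orf1, 22.7, 17.7 and 17.7 CPM in shLINE_Orf2 and 21.7, 19.7 and 21.4 CPM in shLINE_MdV_I, against 18.1, 18.8 and 20.3 CPM in shControl. The shLINE_Orf1+LINE-1 libraries lay above shControl by 0.39 ± 0.21 on the log2 scale (edgeR adjusted p = 0.637). Jun had 178, 198 and 193 CPM in shLINE_Orf1+LINE-1, 147, 268 and 232 CPM in shLINE_Orf1, 299, 245 and 209 CPM in shLINE_Orf2 and 269, 280.5 and 256 CPM in shLINE_MdV_I, against 216, 243 and 256 CPM in shControl. Its shLINE_Orf1+LINE-1 libraries lay below every shControl library and also below every shLINE_Orf2 and shLINE_MdV_I library (log2 fold change against shControl -0.33 ± 0.17, edgeR adjusted p = 0.643). Junb, which often restrains Jun, had 17.99, 17.5 and 17.8 CPM in shLINE_Orf1+LINE-1, 13.02, 18.5 and 15.9 CPM in shLINE_Orf1, 16.9, 14.5 and 11.4 CPM in shLINE_Orf2 and 15.4, 15.7 and 10.6 CPM in shLINE_MdV_I, against 14.8, 15.2 and 16.2 CPM in shControl. Fos and Junb thus lay above, and Jun below, every shControl library in the same 3 libraries. Junb shares exon sequence on opposite strands with Prdx2, which is far more abundant (mean count 24792.7), so its counts are uncertain. Fosl2 and Jund had log2 fold changes between -0.55 and 0.16 in the 4 groups.

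Among the Egr zinc finger factors, which pass a growth factor signal on to later genes, Egr1 was highest in shLINE_Orf1+LINE-1, and all 4 spread widely between replicates. Egr1 had 180.2, 164 and 158 CPM in shLINE_Orf1+LINE-1, 36.0, 126 and 109 CPM in shLINE_Orf1, 114, 78.9 and 74.8 CPM in shLINE_Orf2 and 107, 86.2 and 67.6 CPM in shLINE_MdV_I, against 96.8, 57.4 and 99.4 CPM in shControl. Every shLINE_Orf1+LINE-1 library lay above all 12 others, as it did for 1.25% of genes, while the other 4 groups overlapped. With 167 ± 11.4 CPM in shLINE_Orf1+LINE-1 and 84.6 ± 23.5 CPM in shControl (SD, n = 3 each), the log2 fold change was 0.99 ± 0.34 and did not pass the test (edgeR adjusted p = 0.384). Without shLINE_Orf1 replicate 1 in the shared fit it was 0.98 with an adjusted p of 0.0295, and leaving out any of the other 14 libraries gave no call (the highest adjusted p was 0.747). All 4 Egr genes had positive log2 fold changes in shLINE_Orf1+LINE-1 against shControl, from 0.38 for Egr4 to 0.99 for Egr1.

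Egr3 had the widest spread within groups of the 39 genes. It had 1.17, 0.852 and 0.754 CPM in shLINE_Orf1+LINE-1, 0.0760, 0.651 and 0.680 CPM in shLINE_Orf1, 1.22, 0.382 and 0.291 CPM in shLINE_Orf2 and 0.959, 1.04 and 0.335 CPM in shLINE_MdV_I, against 0.408, 0.475 and 0.862 CPM in shControl. Its range over the 15 libraries, 3.42 on the log2 scale, was the widest of the 39 genes, and all groups overlapped except shLINE_Orf1+LINE-1 and shLINE_Orf1. Egr4 had 6.09, 5.73 and 6.16 CPM in shLINE_Orf1+LINE-1, 2.05, 6.09 and 5.504 CPM in shLINE_Orf1, 8.499, 6.72 and 4.82 CPM in shLINE_Orf2 and 8.01, 8.48 and 6.40 CPM in shLINE_MdV_I, against 3.76, 3.89 and 6.20 CPM in shControl. The shLINE_MdV_I libraries lay above shControl (0.73 ± 0.31 log2, edgeR adjusted p = 0.522), and those of shLINE_Orf2 overlapped it (0.53 ± 0.31, edgeR adjusted p = 0.870).

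Of the small Maf genes, whose proteins lack an activation domain and dimerise with larger partners, Maff had 3.10, 2.77 and 3.27 CPM in shLINE_Orf1+LINE-1, 2.36, 3.46 and 3.62 CPM in shLINE_Orf1, 5.77, 4.002 and 3.39 CPM in shLINE_Orf2 and 4.24, 3.11 and 2.93 CPM in shLINE_MdV_I, against 3.01, 3.69 and 3.59 CPM in shControl. One library, shLINE_Orf2 replicate 1, was the highest of all, and the log2 fold change of its group was 0.35 ± 0.22 (edgeR adjusted p = 0.900). Mafk had log2 fold changes between -0.17 and 0.09 against shControl in the 4 groups. The orphan receptors Nr4a1, Nr4a2 and Nr4a3, which act without a classical ligand, had log2 fold changes between -0.39 and 0.39 against shControl in the 4 groups, with no adjusted p under 0.586 by edgeR.

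Among the Kruppel-like factors, Klf4, a regulator of progenitor state and differentiation, had 3.84, 3.76 and 3.996 CPM in shLINE_MdV_I, against 2.81, 2.87 and 2.54 CPM in shControl. It had 2.22, 2.61 and 2.86 CPM in shLINE_Orf1+LINE-1, 1.62, 2.81 and 2.24 CPM in shLINE_Orf1 and 2.70, 2.88 and 3.78 CPM in shLINE_Orf2. The shLINE_MdV_I values exceeded shControl in every library (0.49 ± 0.20 log2), but the gene did not pass the test (edgeR adjusted p = 0.482). Klf2 had a log2 fold change of -0.27 ± 0.20 in shLINE_Orf2. Klf10 had 226, 223 and 201 CPM in shLINE_Orf1+LINE-1, 164, 271 and 229 CPM in shLINE_Orf1, 274, 206 and 168 CPM in shLINE_Orf2 and 251, 224 and 184 CPM in shLINE_MdV_I, against 267, 194 and 255 CPM in shControl. Klf6 was the steadiest gene of the set: its libraries lay between 102 and 121 CPM, a range of 0.25 on the log2 scale. It had 114, 103 and 113 CPM in shLINE_Orf1+LINE-1, 109, 107 and 115 CPM in shLINE_Orf1, 111, 107 and 116 CPM in shLINE_Orf2 and 104, 111 and 102 CPM in shLINE_MdV_I, against 121, 106 and 109.6 CPM in shControl. All groups overlapped for both Klf10 and Klf6.

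The other nuclear regulators include Myc, Srf and the antiproliferative Btg1. Myc had 142, 135 and 139 CPM in shLINE_Orf1+LINE-1, 75.4, 136 and 144 CPM in shLINE_Orf1, 138, 126 and 121 CPM in shLINE_Orf2 and 146, 155 and 123 CPM in shLINE_MdV_I, against 129.8, 122 and 172 CPM in shControl. Srf itself had 23.3, 24.8 and 26.1 CPM in shLINE_Orf1+LINE-1, 14.9, 22.1 and 24.2 CPM in shLINE_Orf1, 22.9, 23.7 and 20.5 CPM in shLINE_Orf2 and 23.6, 24.8 and 21.7 CPM in shLINE_MdV_I, against 19.3, 23.2 and 24.0 CPM in shControl. Both overlapped between the groups and were lowest in shLINE_Orf1 replicate 1. Btg1 had 35.6, 35.4 and 35.2 CPM in shLINE_Orf1+LINE-1, 39.9, 41.1 and 35.4 CPM in shLINE_Orf1, 43.5, 42.0 and 43.2 CPM in shLINE_Orf2 and 48.0, 43.7 and 47.1 CPM in shLINE_MdV_I, against 44.4, 47.8 and 41.5 CPM in shControl. The 2 groups with the Orf1 hairpin lay below every shControl library, with log2 fold changes of -0.33 ± 0.09 in shLINE_Orf1+LINE-1 (edgeR adjusted p = 0.209) and -0.20 ± 0.09 in shLINE_Orf1 (edgeR adjusted p = 0.462). Ier5, a heat-shock factor partner, had 48.2, 57.5 and 52.2 CPM in shLINE_Orf1+LINE-1, 32.4, 53.6 and 46.2 CPM in shLINE_Orf1, 54.6, 62.3 and 52.8 CPM in shLINE_Orf2 and 56.6, 63.7 and 64.9 CPM in shLINE_MdV_I, against 51.9, 71.6 and 56.1 CPM in shControl. Its shLINE_Orf1 and shControl libraries overlapped (-0.44 ± 0.16 log2, edgeR adjusted p = 0.387), and without shLINE_Orf1 replicate 1 the difference was -0.26 ± 0.13. Csrnp1, a cysteine-rich and serine-rich nuclear protein, had log2 fold changes between -0.04 and 0.20 in the 4 groups. Ier2, singled out after its values were seen, lay between 50.9 and 53.7 CPM in shLINE_Orf1+LINE-1, above all 12 other libraries, and between 32.4 and 45.6 CPM in shControl (0.36 ± 0.15 log2, edgeR adjusted p = 0.509).

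**Figure D2:**
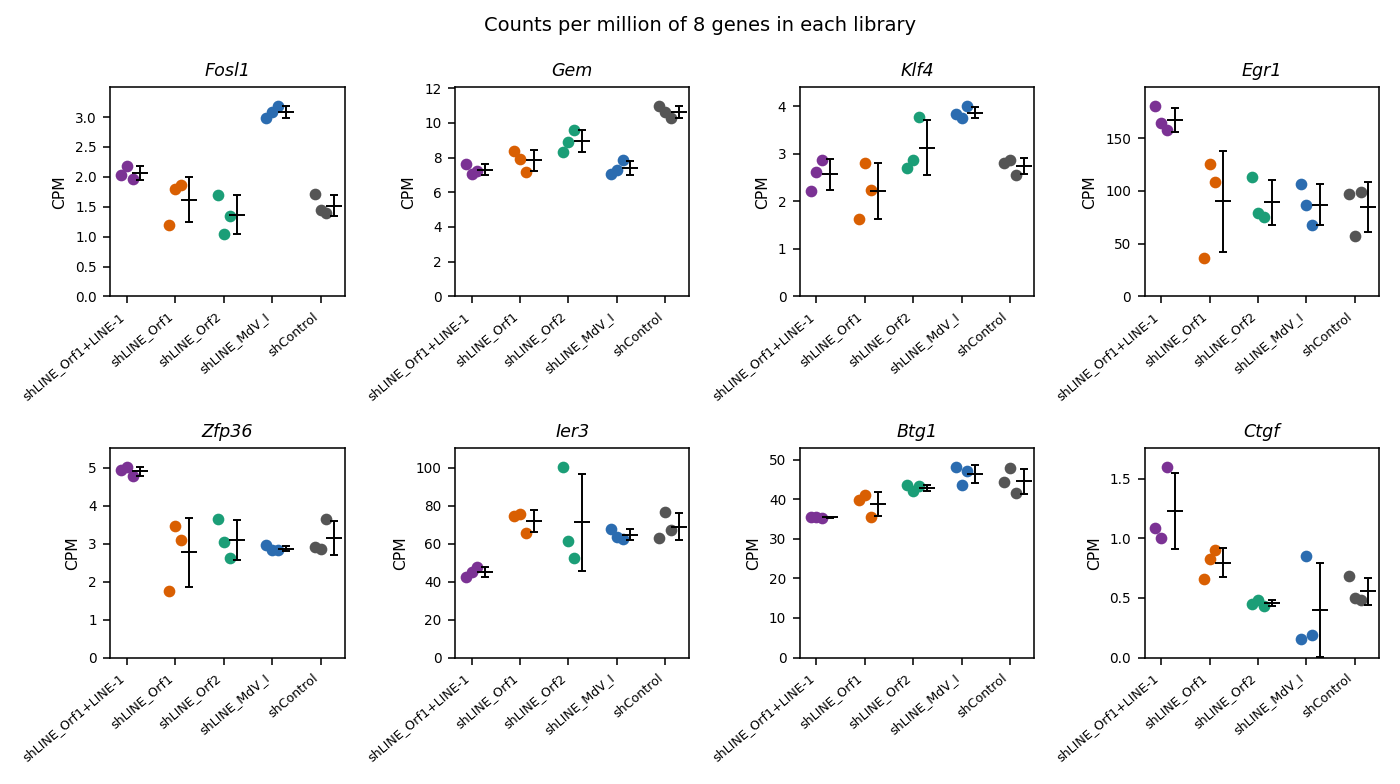
Levels in CPM (vertical axes, from 0) of 8 genes in each library, by group, with the mean and SD of the 3 libraries beside the points. Fosl1 in shLINE_MdV_I and Gem in shControl lie above all 12 other libraries, and Egr1, Zfp36 and Ctgf are highest, and Ier3 lowest, in the 3 shLINE_Orf1+LINE-1 libraries.

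The Zfp36 family binds AU-rich elements and hastens decay of the mRNAs that carry them, among them those of immediate early genes. Zfp36 had 4.96, 5.01 and 4.78 CPM in shLINE_Orf1+LINE-1, 1.75, 3.46 and 3.11 CPM in shLINE_Orf1, 3.65, 3.04 and 2.62 CPM in shLINE_Orf2 and 2.96, 2.84 and 2.82 CPM in shLINE_MdV_I, against 2.92, 2.87 and 3.66 CPM in shControl. Every shLINE_Orf1+LINE-1 library was above all 12 others (against shControl 0.64 ± 0.21 log2, edgeR adjusted p = 0.364). The Zfp36 promoter, shown above, holds a CArG box and an Egr site, as does that of Srf, whose groups overlapped. The part of these sites was not tested. Zfp36l1 had 48.1, 46.0 and 44.9 CPM in shLINE_Orf1+LINE-1, 26.7, 55.3 and 45.0 CPM in shLINE_Orf1, 51.6, 55.0 and 54.3 CPM in shLINE_Orf2 and 58.5, 54.8 and 54.6 CPM in shLINE_MdV_I, against 60.3, 58.7 and 54.2 CPM in shControl. It was below every shControl library in shLINE_Orf1+LINE-1 (-0.32 ± 0.17, edgeR adjusted p = 0.657) and overlapped shControl in shLINE_Orf1 (-0.45 ± 0.17, edgeR adjusted p = 0.418). Without shLINE_Orf1 replicate 1 the difference of Zfp36l1 in shLINE_Orf1 was -0.20 ± 0.09. Zfp36l2 had a log2 fold change of -0.51 ± 0.25 in shLINE_Orf1 against shControl (edgeR adjusted p = 0.488) and at most 0.03 in size in the other 3 groups, and the replicate 1 library lay 1.37 below the mean of the other 2 libraries of shLINE_Orf1 on the log2 scale. Without it the difference of Zfp36l2 was -0.18 ± 0.12.

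Among the genes of feedback and signalling, Gem, a small GTPase that restrains voltage-gated calcium channels, was highest in the controls. Gem (chr4:11704457-11714752, plus strand, GRCm38) had 7.65, 7.03 and 7.21 CPM in shLINE_Orf1+LINE-1, 8.36, 7.94 and 7.19 CPM in shLINE_Orf1, 8.33, 8.87 and 9.60 CPM in shLINE_Orf2 and 7.05, 7.31 and 7.87 CPM in shLINE_MdV_I, against 10.95, 10.6 and 10.3 CPM in shControl. All 3 shControl libraries were above all 12 others, as they were for 0.403% of genes. The log2 fold changes against shControl, which share those controls, were -0.54 ± 0.11 in shLINE_Orf1+LINE-1 (edgeR adjusted p = 0.0854), -0.44 ± 0.11 in shLINE_Orf1 (adjusted p = 0.164), -0.25 ± 0.11 in shLINE_Orf2 (adjusted p = 0.674) and -0.52 ± 0.11 in shLINE_MdV_I (adjusted p = 0.0513). None passed the test, and without shLINE_Orf1 replicate 1 in the shared fit Gem passed it in shLINE_Orf1+LINE-1 (-0.55, adjusted p = 0.0221) and in shLINE_MdV_I (-0.52, adjusted p = 0.0182). Gem also had the least spread within groups for its level, 0.0835 on the log2 scale. Ier3 had 42.5, 45.1 and 48.0 CPM in shLINE_Orf1+LINE-1, 74.5, 75.8 and 65.5 CPM in shLINE_Orf1, 100.2, 61.2 and 52.3 CPM in shLINE_Orf2 and 67.9, 63.7 and 62.6 CPM in shLINE_MdV_I, against 62.9, 76.8 and 67.3 CPM in shControl. The shLINE_Orf1+LINE-1 libraries were below all 12 others, as for 0.885% of genes, with a log2 fold change against shControl of -0.61 ± 0.18 that did not pass the test (edgeR adjusted p = 0.248) but did without shLINE_Orf2 replicate 1, the library highest in Ier3 (-0.60, adjusted p = 0.0446). The MAP kinase phosphatases Dusp1, Dusp2 and Dusp5, the pseudokinase Trib1 and the kinase Sgk1 had no adjusted p under 0.532 by edgeR against shControl, and the widest of their fold changes was that of Dusp2 in shLINE_Orf1, -0.69 ± 0.40, or -0.42 ± 0.41 without shLINE_Orf1 replicate 1. Dusp1 overlaps exons of the more abundant Ergic1 (mean count 10513.5) on the other strand. Mafk overlaps Tmem184a (mean count 2.1), and for 8 other genes (Csrnp1, Ctgf, Dusp5, Jun, Jund, Zfp36, Zfp36l1 and Zfp36l2) the annotated partner was not analysed here.

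Both secreted matrix proteins are targets of Yap and Srf, and both were singled out after their values were seen. Ctgf had 1.09, 1.01 and 1.59 CPM in shLINE_Orf1+LINE-1, 0.659, 0.827 and 0.899 CPM in shLINE_Orf1, 0.451, 0.483 and 0.436 CPM in shLINE_Orf2 and 0.160, 0.853 and 0.188 CPM in shLINE_MdV_I, against 0.687, 0.497 and 0.483 CPM in shControl. Cyr61 had 9.83, 8.05 and 9.41 CPM in shLINE_Orf1+LINE-1, against 6.42, 5.47 and 5.91 CPM in shControl. It had 3.75, 7.84 and 8.16 CPM in shLINE_Orf1, which overlapped shLINE_Orf1+LINE-1. There, replicates 2 and 3 also lay above every shControl library. In shLINE_Orf2 it had 7.28, 5.15 and 5.01 CPM and in shLINE_MdV_I 5.97, 6.31 and 5.21 CPM. Although the shLINE_Orf1+LINE-1 and shControl libraries were apart for both genes, neither gene passed the test. The log2 fold changes between these groups were 1.14 ± 0.46 for Ctgf (edgeR adjusted p = 0.490) and 0.62 ± 0.23 for Cyr61 (edgeR adjusted p = 0.454).

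Both synaptic genes were detected in every library. Arc, an activity-induced protein of the postsynapse, had 29.9, 33.7 and 31.3 CPM in shLINE_Orf1+LINE-1, 16.4, 30.8 and 29.5 CPM in shLINE_Orf1, 32.8, 19.6 and 18.8 CPM in shLINE_Orf2 and 29.1, 26.9 and 20.4 CPM in shLINE_MdV_I, against 20.9, 20.5 and 37.5 CPM in shControl. Homer1, a scaffold of the postsynapse, had 28.6, 26.4 and 30.2 CPM in shLINE_Orf1+LINE-1, 26.3, 30.1 and 34.3 CPM in shLINE_Orf1, 32.8, 34.1 and 31.0 CPM in shLINE_Orf2 and 28.5, 34.0 and 32.1 CPM in shLINE_MdV_I, against 35.5, 25.8 and 32.1 CPM in shControl. For the totals of both genes, all groups overlapped shControl. The immediate early form is the short one, which lacks the coiled coil of the long forms. Its most abundant transcript, of 186 codons, had 4.45 ± 0.898 CPM in shLINE_Orf1+LINE-1, 4.10 ± 1.22 CPM in shLINE_Orf1, 5.25 ± 0.196 CPM in shLINE_Orf2 and 4.70 ± 0.603 CPM in shLINE_MdV_I, against 6.02 ± 0.673 CPM in shControl (SD, n = 3 each). The lowest shControl library, at 5.28 CPM, was above the highest of shLINE_Orf1+LINE-1 (5.10 CPM) and of shLINE_MdV_I (5.23 CPM). Libraries of shLINE_Orf1 and shLINE_Orf2 overlapped shControl for this transcript. The 3 transcripts of 354 to 370 codons together had 21.4 ± 1.74 CPM in shLINE_Orf1+LINE-1, 23.5 ± 2.12 CPM in shLINE_Orf1, 24.8 ± 0.893 CPM in shLINE_Orf2 and 24.3 ± 2.14 CPM in shLINE_MdV_I, against 22.7 ± 4.55 CPM in shControl. Per kilobase the short form lay between 0.718 and 1.05 CPM and the long forms between 6.84 and 7.76 CPM over the group means. These forms were not tested, and how RSEM divided reads between them was not examined.

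In shLINE_Orf1 against shControl, which asks what the Orf1 hairpin does, the direction of the set rested on 1 library. Of the 39 genes 11 had a positive and 28 a negative log2 fold change with all libraries. Without shLINE_Orf1 replicate 1, 40 genes passed the filter and 26 were positive and 14 negative, with a median of 0.06 in place of -0.11. With all libraries 2 of 39 genes, Gem and Btg1, had groups that did not overlap (9.27% of all genes), both lower (4.41%). Without that library 7 genes were higher in every library (Fos, Fosl1, Egr1, Cyr61, Ctgf, Sgk1 and Trib1; 9.21% of all genes) and Gem and Btg1 lower (7.57%). No gene was called either way.

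Within its group, shLINE_Orf1 replicate 1 was below the mean of the other 2 libraries for 36 of 39 genes, with a median difference of -0.69 on the log2 scale, beside -0.02 over all genes. It was the lowest of the 15 libraries for 27 of 39 genes (29.2% of all genes) and the highest for 0 (26.5% of all genes). The difference was widest for Egr3 (-2.58), Nr4a3 (-1.78), Egr1 (-1.69), Fosl2 (-1.59) and Egr4 (-1.48), and 11 genes were under -1 (7.55% of all genes). Ier3, Btg1 and Gem, at 0.08, 0.07 and 0.14, were not lower there. This library is also the one with the most mitochondrial mRNA, and the part of that in the difference was not tested.

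**Figure D3:**
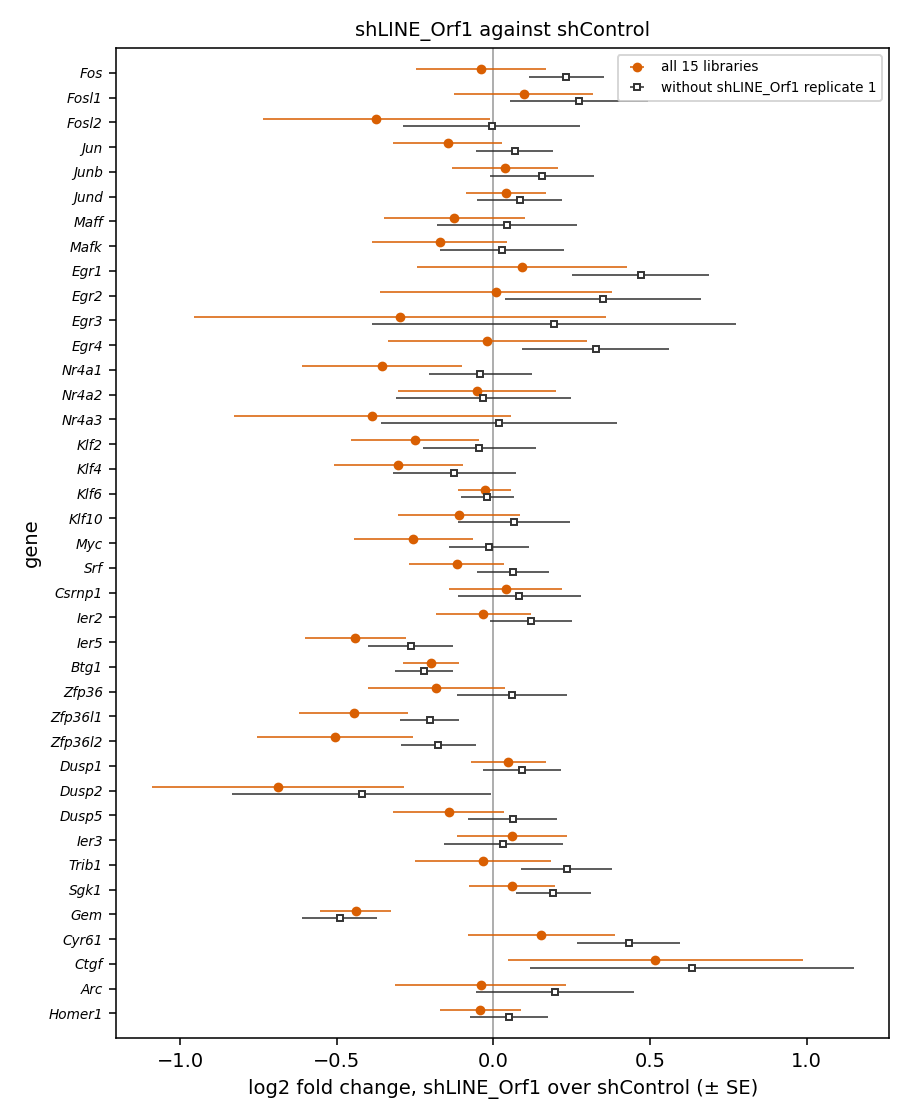
Log2 fold change of shLINE_Orf1 over shControl with its standard error (horizontal axis) for 39 genes (rows, by role), with all 15 libraries (filled circles) and without shLINE_Orf1 replicate 1 (open squares). Most circles lie left of 0 (28 of 39 genes), most squares right of it, while Gem and Btg1 keep their place.

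The group with added LINE-1 bears on whether LINE-1 RNA returns what the Orf1 hairpin changes. In shLINE_Orf1+LINE-1 against shControl, 15 of 39 genes had groups that did not overlap (16.8% of all genes), 9 higher (9.53%) and 6 lower (7.27%). The higher ones were Fos, Fosl1, Junb, Egr1, Ier2, Zfp36, Cyr61, Ctgf and Sgk1, and the lower ones Fosl2, Jun, Ier3, Btg1, Zfp36l1 and Gem. None of the 15 was called. Against shLINE_Orf1 directly, 0 of 39 genes were called, and 0% of all genes were. At an unadjusted p under 0.05 there were 4 (11.1% of all genes), Zfp36 (0.82 ± 0.22), Egr1 (0.89 ± 0.34), Ier2 (0.39 ± 0.15) and Ier3 (-0.67 ± 0.18), each with an edgeR adjusted p of 0.422. Groups that did not overlap were found for 8 of 39 genes (17.4% of all genes), 7 higher (9.46%) and 1, Ier3, lower (7.95%). The higher ones were Fosl1, Egr1, Egr3, Ier2, Zfp36, Dusp2 and Ctgf. Without shLINE_Orf1 replicate 1 the same 7 were higher (12.5% of all genes), and 8 were lower (12.1%), namely Fosl2, Jun, Jund, Ier3, Klf2, Klf10, Maff and Trib1. In that setting the differences of Egr1 and Zfp36 were 0.51 and 0.57. There the genes with a positive log2 fold change numbered 22 of 40, against 27 of 39 with all libraries, and the median was 0.03 in place of 0.21. For Gem and Btg1, the 2 genes below every shControl library in shLINE_Orf1, the difference between shLINE_Orf1+LINE-1 and shLINE_Orf1 was -0.10 ± 0.11 and -0.13 ± 0.09 (edgeR adjusted p = 0.650 and 0.478).

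**Figure D4:**
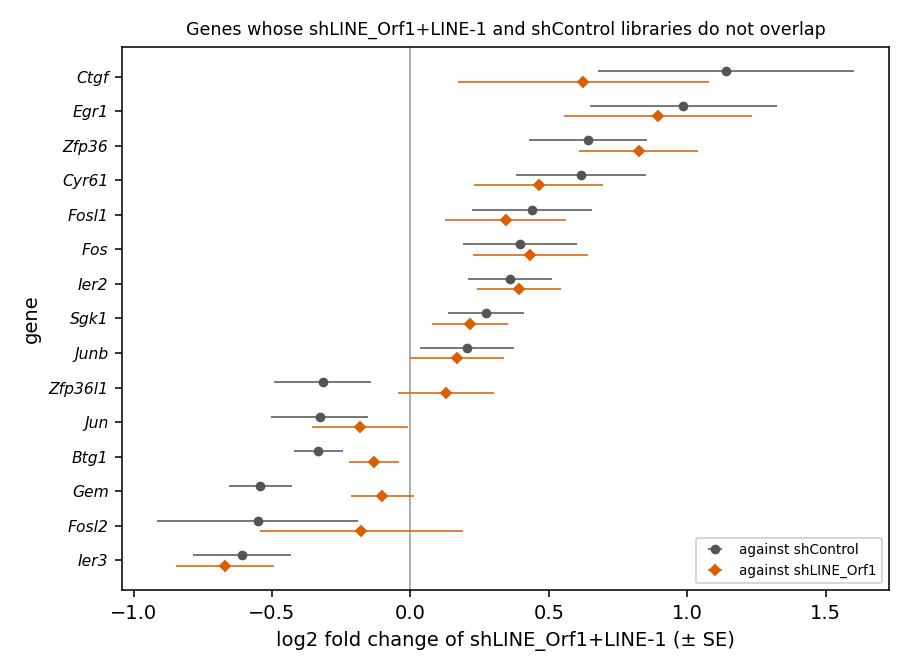
Log2 fold change of shLINE_Orf1+LINE-1 with its standard error (horizontal axis) against shControl (circles) and against shLINE_Orf1 (diamonds) for the 15 genes (rows) whose shLINE_Orf1+LINE-1 and shControl libraries do not overlap. Ier3 differs from both (-0.61 and -0.67), Egr1 does with all libraries (0.99 and 0.89) but by 0.51 from shLINE_Orf1 without its replicate 1, Gem and Btg1 lie farther from shControl than from shLINE_Orf1, and none of the 15 passed the test.

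The groups that received a LINE-1 hairpin were also compared with each other, and 0 of 39 genes were called in any of these 5 pairs. All genes were called at 0% in shLINE_Orf2 against shLINE_Orf1, 0.687% in shLINE_MdV_I against shLINE_Orf1, 0.112% in shLINE_MdV_I against shLINE_Orf2, 0.238% in shLINE_Orf1+LINE-1 against shLINE_Orf2 and 0.680% in shLINE_Orf1+LINE-1 against shLINE_MdV_I. The added LINE-1 group had groups that did not overlap for 18 of 39 genes against shLINE_Orf2 (26.5% of all genes) and 19 of 39 against shLINE_MdV_I (27.2%). The smallest adjusted p there was 0.0714, for Btg1 against shLINE_MdV_I (-0.39 ± 0.09, edgeR).

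Replicates of a group differed more for some of these genes than the groups did. The median SD within groups was 0.264 on the log2 CPM scale for the 39 genes and 0.221 over all genes, and without shLINE_Orf1 replicate 1 it was 0.180 and 0.174. Set beside 500 genes of like level, 10 of the 39 had an SD above the 90th percentile, namely Fosl2, Egr1 to Egr4, Nr4a1, Nr4a3, Arc, Zfp36l2 and Trib1. Without that library 8 did, with Ier3, Klf10 and Dusp2 in place of Egr4, Nr4a1, Nr4a3, Zfp36l2 and Trib1. By group the median SD was 0.0925 in shLINE_Orf1+LINE-1, 0.423 in shLINE_Orf1, 0.237 in shLINE_Orf2 and 0.129 in shLINE_MdV_I, against 0.192 in shControl, beside 0.0954, 0.293, 0.124, 0.116 and 0.233 over all genes.

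**Figure D5:**
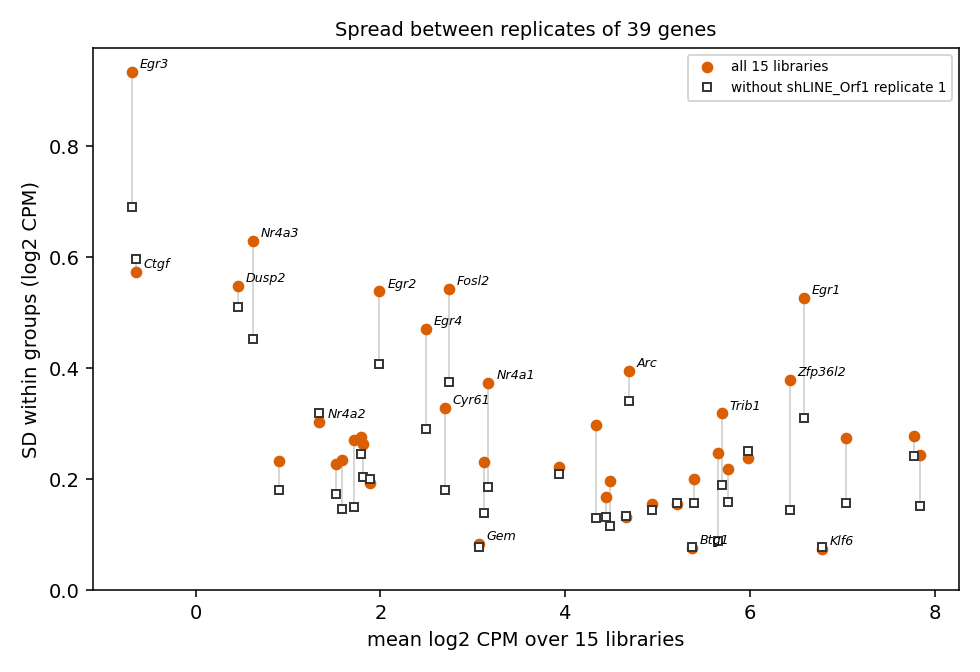
SD within groups of log2 CPM (vertical axis) against the mean log2 CPM over 15 libraries (horizontal axis) for 39 genes, with all libraries (circles) and without shLINE_Orf1 replicate 1 (squares), joined by a line per gene. With all libraries Egr3 (0.934) and Nr4a3 (0.629) spread most, without that library Egr3 (0.691) and Ctgf (0.597), and Gem, Btg1 and Klf6 lie lowest with all libraries.

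Genes upstream of the response and beside it were taken from 3 further lists. Of 32 genes of the route from receptor to nucleus (Egfr and the Fgf receptors, Ras, Raf, MAP kinases, ternary complex factors and Creb), all were tested and 0 were called in each of the 5 main comparisons. Of 30 other primary response genes, 0 were called likewise. Over all genes, 0.139% were called in shLINE_Orf1+LINE-1, 0.178% in shLINE_Orf1, 0.191% in shLINE_Orf2 and 0.594% in shLINE_MdV_I against shControl. Between shLINE_Orf1+LINE-1 and shLINE_Orf1 it was 0%. Of 18 cytoskeletal targets of Srf and its Mrtf cofactors, 2 were called in some comparison. Against shControl, 1 was higher and 1 lower in shLINE_Orf1+LINE-1, 1 higher in shLINE_Orf1, 1 lower in shLINE_Orf2 and 0 called in shLINE_MdV_I. Myl9, a regulatory light chain of myosin, had 29.8, 29.7 and 31.1 CPM in shLINE_Orf1+LINE-1, 29.2, 27.5 and 27.7 CPM in shLINE_Orf1, 22.1, 19.4 and 19.8 CPM in shLINE_Orf2 and 14.8, 16.0 and 19.2 CPM in shLINE_MdV_I, against 14.6, 19.3 and 16.1 CPM in shControl. It rose by 0.86 ± 0.12 in shLINE_Orf1+LINE-1 and by 0.75 ± 0.12 in shLINE_Orf1 on the log2 scale (edgeR adjusted p = 0.0145 and 0.0196). Cald1, the actin-binding caldesmon, had 90.7, 86.9 and 86.8 CPM in shLINE_Orf1+LINE-1, 98.7, 104.7 and 96.0 CPM in shLINE_Orf1, 92.5, 87.0 and 95.3 CPM in shLINE_Orf2 and 89.7, 96.8 and 104.8 CPM in shLINE_MdV_I, against 133, 130.2 and 117 CPM in shControl. It fell by 0.52 in shLINE_Orf1+LINE-1 and by 0.47 in shLINE_Orf2 on the log2 scale, each with an SE of 0.09 (edgeR adjusted p = 0.0254 and 0.0437). All 4 groups lay below every shControl library, and the difference was -0.35 ± 0.09 in shLINE_Orf1 (adjusted p = 0.162) and -0.38 ± 0.09 in shLINE_MdV_I (adjusted p = 0.0669). The remaining 16 of these 18 did not pass the test in any main comparison.

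In the authors' deposited table of a group effect, on a scale that is not named, 39 of the 41 genes are listed, all but Fosb and Egr3. Of these 30 have a positive and 9 a negative estimate, and 60.9% of its 17921 genes are positive. None of the 39 has a p under 0.05 in the authors' deposited table (2.66% of all its genes do), and the smallest is that of Ier2, 0.109.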

How the data were processed

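Sorted neural progenitor cells were profiled by RNA-seq, with libraries made by a SMART-seq2-type protocol per the labels. The authors deposited expected counts per transcript. The submitters' processing notes name cutadapt, RSEM and mm10, with no roles, and neither the annotation nor the handling of strand is given in the sources used here. Of 111462 transcripts, 110203 were matched by Ensembl identifier to GENCODE M21 (GRCm38), summed to 34989 genes and rounded. The other 1259 transcripts (0.583% to 0.637% of counts) and 1 blank row were left out. Genes were filtered with filterByExpr (minimum count 10), which left 15147, scaled with TMM and fitted in 1 model of the 5 groups with edgeR's robust quasi-likelihood test, with Benjamini-Hochberg adjustment and calls at an adjusted p under 0.05. Log2 CPM used a prior count of 2. TPM were computed from the counts and annotated transcript lengths. Replicates differed by a chi-square per degree of freedom of 7.11 to 245, so no libraries were merged, and the common biological coefficient of variation was 0.158.

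In the authors' deposited table, the estimate and its t score have no named scale, and its p-value and adjusted p-value (1 for every gene) are printed as the authors' values. Which samples entered it is not stated there.

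Values per library were given for genes called in any comparison, the 3 with the smallest p in each of the 5 main comparisons, the 5 highest in TPM, the one with the widest range, and Fos, Egr1, Junb, Myc, Srf, Arc and Homer1. The members, lists and alternatives were chosen with earlier results of these data known. Alternatives were RLE factors, library size only, no filter, at least 50 counts in 3 libraries, thinned libraries, DESeq2 and limma-voom (sample quality weighted). Others were a fit of the compared groups alone, a replicate block, and the number before the S number in each library's description as a covariate. Fits without each single library, or without both that stand apart, were also made. The spread and the counts of groups that do not overlap without shLINE_Orf1 replicate 1 were added after seeing the data. The fit was tested on simulated data. Tools were R 4.3.3, edgeR 4.0.16, limma 3.58.1, DESeq2 1.42.0, statmod 1.5.0, Python 3.11.15, pandas 2.3.3, numpy 2.4.6 and matplotlib 3.10.9.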

Additional observations from a re-analysis of the deposited data

How the results depend on the processing

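Of the counts of genes called, 210 combinations of a comparison and a setting equalled the fit described above. Of the others, 48 were higher and 27 lower. That fit called 0 of the genes in every comparison but shLINE_MdV_I against shControl and the test for any difference, with 1 each. None of 15 pairs of a gene and a main comparison, those with the smallest p, turned its sign. Other fold changes did: in shLINE_Orf1 against shControl 15 of 39 without shLINE_Orf1 replicate 1. In some setting the sign turned against shControl for 27 of 39 genes in shLINE_Orf1, 26 in shLINE_Orf2, 24 in shLINE_MdV_I and 11 in shLINE_Orf1+LINE-1. Between shLINE_Orf1+LINE-1 and shLINE_Orf1 it did for 15 of 39. In shLINE_MdV_I against shControl, 1 gene was called with all libraries, 0 with library size only, with no filter, with only the compared groups and with the replicate block, and 2 (Fosl1 and Gem in DESeq2 and limma-voom) with at least 50 counts, thinned libraries, DESeq2, limma-voom, the description number as covariate and without both libraries that stand apart. Fosl1 there was called in 11 of 26 alternatives (adjusted p 0.000461 to 0.170) and Gem in 7 (0.000501 to 0.308). In shLINE_Orf1+LINE-1 against shControl the count was 2 (Btg1 and Gem) in DESeq2, 5 (Jun, Egr1, Ier3, Cyr61 and Gem) in limma-voom and 1 without both libraries, in shLINE_Orf1 against shControl it was 1 (Gem) in DESeq2 and 2 in limma-voom, and in shLINE_Orf1+LINE-1 and in shLINE_Orf2 against shLINE_Orf1 it was 3 in limma-voom. In shLINE_MdV_I against shLINE_Orf1 it was 2 in DESeq2, 6 in limma-voom and 7 with the covariate, and against shLINE_Orf2 it was 1 with RLE factors, thinned libraries, DESeq2, only the compared groups and without both libraries, and 2 in limma-voom. In shLINE_Orf1+LINE-1 against shLINE_Orf2 it was 1 in DESeq2, 14 in limma-voom, 9 with only the compared groups and 6 without both libraries, and against shLINE_MdV_I 3, 13, 9 and 5 in the same order. Over all genes these settings called 1.77%, 10.2%, 7.11% and 3.68% against shLINE_Orf2, where the fit of all libraries called 0.238%, and 2.28%, 11%, 8.21% and 3.73% against shLINE_MdV_I (0.680%). In the other comparisons DESeq2 called 0.132% to 2.87% of all genes in pairs and 6.01% in the test for any difference, limma-voom 2.53% to 11.2% and 10.2%, and the covariate 13.6% in shLINE_MdV_I against shLINE_Orf1. The test for any difference gave 0 with library size only (0.687% of all genes) and with the replicate block (0.37%), and 2 with the covariate (1.89%). It gave 7 in DESeq2 and without both libraries (6.02% of all genes without both), and 11 in limma-voom. Without both libraries, 2.53% of all genes were called in shLINE_MdV_I and 2.3% in shLINE_Orf1+LINE-1 against shControl, and 1.13% in shLINE_MdV_I against shLINE_Orf2. Leaving out 1 library at a time gave 0 to 2 genes in shLINE_MdV_I and in shLINE_Orf1+LINE-1 against shControl, and 0 to 1 in shLINE_MdV_I against shLINE_Orf1 and against shLINE_Orf2. It gave 0 to 4 in shLINE_Orf1+LINE-1 against shLINE_Orf2, 0 to 5 in it against shLINE_MdV_I and 0 to 5 in the test for any difference. The most came without shLINE_Orf1 replicate 1 in each but shLINE_MdV_I against shLINE_Orf1. Without shLINE_Orf1 replicate 1, 2.46% of all genes were called in the test for any difference (0.944% with all libraries). Against shControl it was 1.64% in shLINE_MdV_I (0.594%) and 1.11% in shLINE_Orf1+LINE-1 (0.139%). In shLINE_Orf1+LINE-1 it was 1.6% against shLINE_Orf2 (0.238%) and 1.96% against shLINE_MdV_I (0.680%). In shLINE_MdV_I it was 0.472% against shLINE_Orf2 (0.112%) and 0.453% against shLINE_Orf1 (0.687%). The labels do not say what a replicate number shares. Of 30 same-numbered pairs, 10 deviated together with a correlation over 0.1 (range -0.656 to 0.596). Deviations of 3 libraries from their group mean are tied to each other, so these correlations cannot decide whether the numbers pair the samples. The replicate block only shows that its calls were 0. The cause of these shifts was not tested. Genes under 1 TPM, such as Ctgf and Egr3, had too few counts for small differences to be detectable.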
